A study of Homo sapiens with 9 samples.

Results

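The 37 autophagy core genes described here were found by gene symbol in a table of 30000 rows, taking the first row of each symbol. All 37 were present, and all 37 were among the 18437 rows with enough reads to be tested. The samples were 9 RNA-seq libraries of THP-1, a human monocytic leukaemia line, in 3 groups of 3. Control cells are labelled Ctrl and received no ectosomes as far as the labels say. The labels Scramble and PKM2_KD stand for cells given ectosomes of Huh7, a human hepatoma line; ectosomes are vesicles shed by the plasma membrane. PKM2_KD was read here as knockdown of PKM2, an isoform of pyruvate kinase, by shRNA in the cells that shed the ectosomes, against a scramble shRNA. The labels carry the shRNA field on the THP-1 samples themselves and do not say which cells were treated with it. The sources used here give no dose of ectosomes and no length of incubation, and do not say whether the replicates were separate cultures. The spread behind the p-values is that between these libraries, and it may be technical.

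Macroautophagy is the route by which a cell wraps cytoplasm in a double membrane and delivers it to the lysosome. A kinase complex around ULK1 starts the process, a lipid kinase complex around PIK3C3 and BECN1 marks the site, lipid carriers and scramblases grow the cup-shaped phagophore, and 2 linked conjugation systems attach ATG8 proteins (the LC3 and GABARAP families) to its membrane. Cargo receptors such as SQSTM1 (p62) bind the ATG8 proteins and bring in protein aggregates or organelles. In monocytes and macrophages the same genes also serve the clearance of microbes and damaged mitochondria and limit inflammasome activity. Transcript levels do not measure the flow of material through the pathway.

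Levels are given as CPM, counts relative to the library's total after scaling the libraries to each other by the trimmed mean of M values (TMM). A gene is called higher or lower, or said to have risen or fallen, where its adjusted p in edgeR's quasi-likelihood test over all 18437 rows was under 0.05. A value with ± gives the mean and the SD of a group (n = 3 libraries). Fold changes are model estimates on the log2 scale, with their SE. The test of PKM2-knockdown against scramble ectosomes is also the test of whether the effects of both kinds of ectosomes against control differed. The comparisons share libraries, so their values for 1 gene are not independent of each other.

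The libraries held 17744587 to 23864381 counts. Control replicate 3 stood apart. Set against control replicates 1 and 2, its counts gave a chi-square over degrees of freedom of 46.4 and 43.6, where the other pairs within a group gave 2.53 to 7.01. Among the members, 5 lay at least 2-fold away from the mean of the other controls in it, all lower (ULK2, WIPI1, GABARAPL1, OPTN and BNIP3L), as did 6.67% of all genes tested. Differences of at least 2-fold from control are therefore also given without that library, as are those of PKM. Of 14 genes that mark the monocytic line, 13 were above 1 CPM on average and CD68 was not. Summed, they stood at 1516 to 2034 CPM in control, 1870 to 1992 CPM with scramble and 2840 to 3075 CPM with PKM2-knockdown ectosomes. Single genes of this list went opposite ways. Against control 4 rose and 7 fell with scramble ectosomes, and 6 rose and 4 fell with the knockdown, while 9 were higher and 0 lower with the knockdown than with scramble. LYZ (lysozyme) fell 11.5-fold with scramble and 5.09-fold with knockdown ectosomes, or 7.59-fold and 3.36-fold without control replicate 3. CSF1R, the receptor of a macrophage growth factor, rose 2.39-fold and 9.89-fold (2.41-fold and 9.94-fold without that library). CD14, a co-receptor for lipopolysaccharide, rose 18.7-fold with knockdown ectosomes, 13.1-fold without it. Of 20 hepatocyte genes listed, only 12 had a row, and 2 of these 12 were above 1 CPM (APOA2 and SERPINA1). The sum of the 12 was 4.20 to 9.08 CPM, 7.48 to 8.48 CPM and 41.8 to 48.5 CPM in the same order. SERPINA1 alone averaged 2.02, 3.53 and 37.4 CPM, so the last sum was mostly this 1 gene. ALB stayed at or under 0.448 CPM on average in every group. T-cell, epithelial and erythroid genes were at or under 2.65 CPM in sum in every library, B-cell genes at 12.9 to 21.6 CPM, and the fibroblast and endothelial list, led by PECAM1, at 199 to 823 CPM. The part of these marker transcripts in the results below was not tested, and in bulk RNA fewer cells of a type and less RNA per cell cannot be told apart.

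PKM, the gene whose knockdown names a group, was measured in the receiving THP-1 cells. Its level there was 650 ± 195 CPM in control, 3500 ± 108 CPM with scramble and 2313 ± 137 CPM with PKM2-knockdown ectosomes. PKM was 5.38-fold above control with scramble (adjusted p = 1.03e-06) and 3.56-fold above it with knockdown ectosomes (adjusted p = 1.70e-05), or 4.59-fold and 3.03-fold without control replicate 3, and 1.51-fold lower with the knockdown than with scramble (adjusted p = 0.0145). The row sums all isoforms of the gene, and no library of the cells that shed the ectosomes was analysed here, so the knockdown in those cells was not checked.

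The promoters of 3 members are shown as RefSeq gives them on GRCh38.p14, each as the 250 bases before the gene's start, on the gene's strand. Windows were first taken by rank with scramble ectosomes, for the largest rises (WIPI1, MAP1LC3B, GABARAPL1 and SQSTM1, all over 4-fold) and the deepest fall (ATG16L2). Of the genes that rose, the 2 ATG8 genes are printed, MAP1LC3B and GABARAPL1. These are also the 2 whose windows held a match to a motif searched. MAP1LC3B fell between the kinds of ectosomes and GABARAPL1 was not called there. ATG16L2 is the third gene printed. For all 3 the RefSeq start lies inside the span that GENCODE gives the gene. Capitals mark the matches found to the motifs searched.
MAP1LC3B promoter, chr16:87392086-87392335, plus strand: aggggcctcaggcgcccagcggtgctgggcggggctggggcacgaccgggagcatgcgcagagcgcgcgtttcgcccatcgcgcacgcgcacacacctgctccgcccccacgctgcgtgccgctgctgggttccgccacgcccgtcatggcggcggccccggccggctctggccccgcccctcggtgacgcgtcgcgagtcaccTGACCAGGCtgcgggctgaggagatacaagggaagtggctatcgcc
GABARAPL1 promoter, chr12:10212627-10212876, plus strand: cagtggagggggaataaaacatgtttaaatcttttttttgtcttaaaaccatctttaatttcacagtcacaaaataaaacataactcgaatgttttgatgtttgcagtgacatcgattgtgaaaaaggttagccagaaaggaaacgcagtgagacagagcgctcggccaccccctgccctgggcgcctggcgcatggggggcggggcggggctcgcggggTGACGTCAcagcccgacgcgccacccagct
ATG16L2 promoter, chr11:72814161-72814410, plus strand: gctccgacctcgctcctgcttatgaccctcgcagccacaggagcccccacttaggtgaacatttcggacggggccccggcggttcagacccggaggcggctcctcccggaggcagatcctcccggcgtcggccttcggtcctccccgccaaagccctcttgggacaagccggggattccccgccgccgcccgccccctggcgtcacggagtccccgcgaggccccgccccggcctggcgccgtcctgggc

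These windows were searched on both strands for CACGTG (the E-box bound by TFEB and TFE3, transcription factors of lysosome and autophagy genes), TGATGNAA (an element bound by ATF4 with C/EBP proteins), TGACNNNGC (the core bound by NRF2) and TGACGTCA (the cAMP response element, added after the GABARAPL1 sequence had been seen). No match shown overlaps another. Promoter entries were found for 33 of the 37 members. CACGTG was in 2 of the 33 (ATG14 and ATG3), 6.06%, and in 6.35% of all 35116 promoter windows of the same length. TGATGNAA was in 0 of 33 and in 3.14% of all windows. TGACNNNGC was in 3 of 33 (ATG101, MAP1LC3B and CALCOCO2), 9.09%, against 10.9% of all windows. TGACGTCA was in GABARAPL1 alone, 3.03% of 33, against 1.65% of all windows. In MAP1LC3B the matched letters begin 46 bases before the start, in GABARAPL1 30 bases before it, and the ATG16L2 window held none. The windows of WIPI1 and SQSTM1, not printed, held no match to any of these motifs either. With scramble ectosomes WIPI1 had the largest rise of the members (6.39-fold), and SQSTM1 rose 4.72-fold. No link of a motif with the direction of a change was tested. A match describes the letters and is not a measured binding site.

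With scramble ectosomes, 20 of the 37 members were higher than in control and 6 were lower, where 34.6% of all genes tested were higher and 33.2% lower. Of these calls, 5 rises and 2 falls were at least 2-fold, where 3335 rises and 3413 falls of the 18437 genes were. The median size of the log2 difference, whatever its sign, was 0.40 for the members and 0.735 for all genes. The median log2 difference of the members was 0.31, and that of all genes tested was -0.01. With PKM2-knockdown ectosomes, 15 members were higher than in control and 7 lower, where 27.0% of all genes were higher and 26.7% lower, with a median of 0.06 for the members and -0.01 for all genes. Between the kinds of ectosomes, 10 members were higher with the knockdown and 14 lower, where 31.4% of all genes were higher and 30.3% lower, and the medians were -0.16 and 0.03. ULK2, ATG14, ATG3 and ATG4B passed the test in none of the comparisons, and the share of all genes that passed in none was not counted. The shares of all genes called are the background for each count below as well, and the groups by role hold 4 to 10 genes each, so their counts are descriptions.

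The split into higher and lower depended on the scaling. With libraries scaled by their totals alone, the median of all genes moved to -0.21 for scramble ectosomes against control and to 0.20 between the kinds of ectosomes, and the members split into 13 higher and 11 lower, and into 15 higher and 11 lower. Over all genes the share of calls that were rises went from 51.05% to 40.2% and from 50.88% to 61.95% in these comparisons. Of all genes tested, 27.8% were then higher and 41.4% lower, and 38.2% higher and 23.5% lower. The members' medians moved along with those of all genes, to 0.11 and 0.01. The split against control with PKM2-knockdown ectosomes stayed at 15 and 7. Without control replicate 3, the members split into 21 and 7, 18 and 8, and 15 and 19, in the order of the paragraph above. All genes then gave 36.9% and 34.7%, 29.1% and 28.6%, and 36.1% and 35.4%. The lower count with PKM2-knockdown ectosomes against control was 4 without PKM2-knockdown replicate 1 or replicate 2, in place of 7. Of all genes, 4146 of 19027 and 3958 of 18912 were lower in these fits, in place of 4926 of 18437. The lower count with scramble ectosomes was 4 without scramble replicate 2 or replicate 3, in place of 6. Of all genes, 5612 of 18985 and 5601 of 18968 were then lower, in place of 6115 of 18437.

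**Figure D1:**
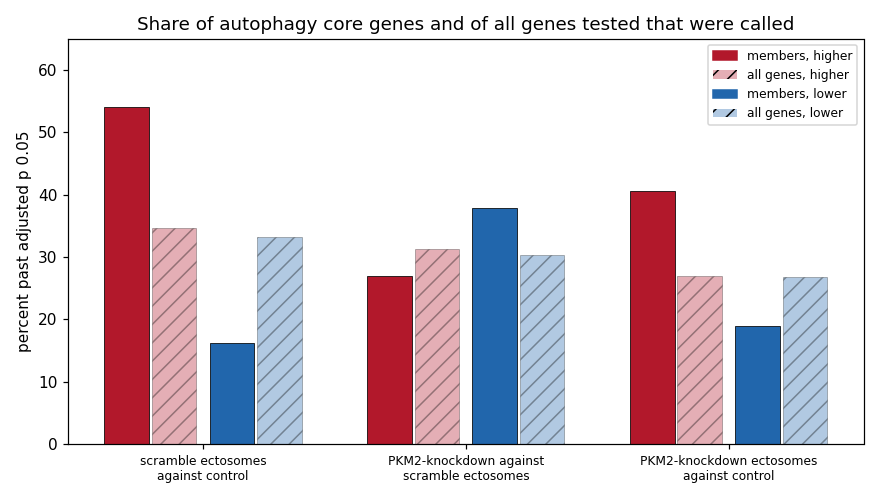
Percent of the 37 members (solid bars) and of all 18437 genes tested (hatched bars) that were higher (red) or lower (blue) at adjusted p under 0.05, in each comparison under TMM scaling. The widest gap between members and all genes is in the rises with scramble ectosomes, 20 of 37 members against 34.6% of all genes. With scaling by library totals (not drawn) 13 members were higher and 11 lower there, where 27.8% of all genes were higher and 41.4% lower.

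**Figure D2:**
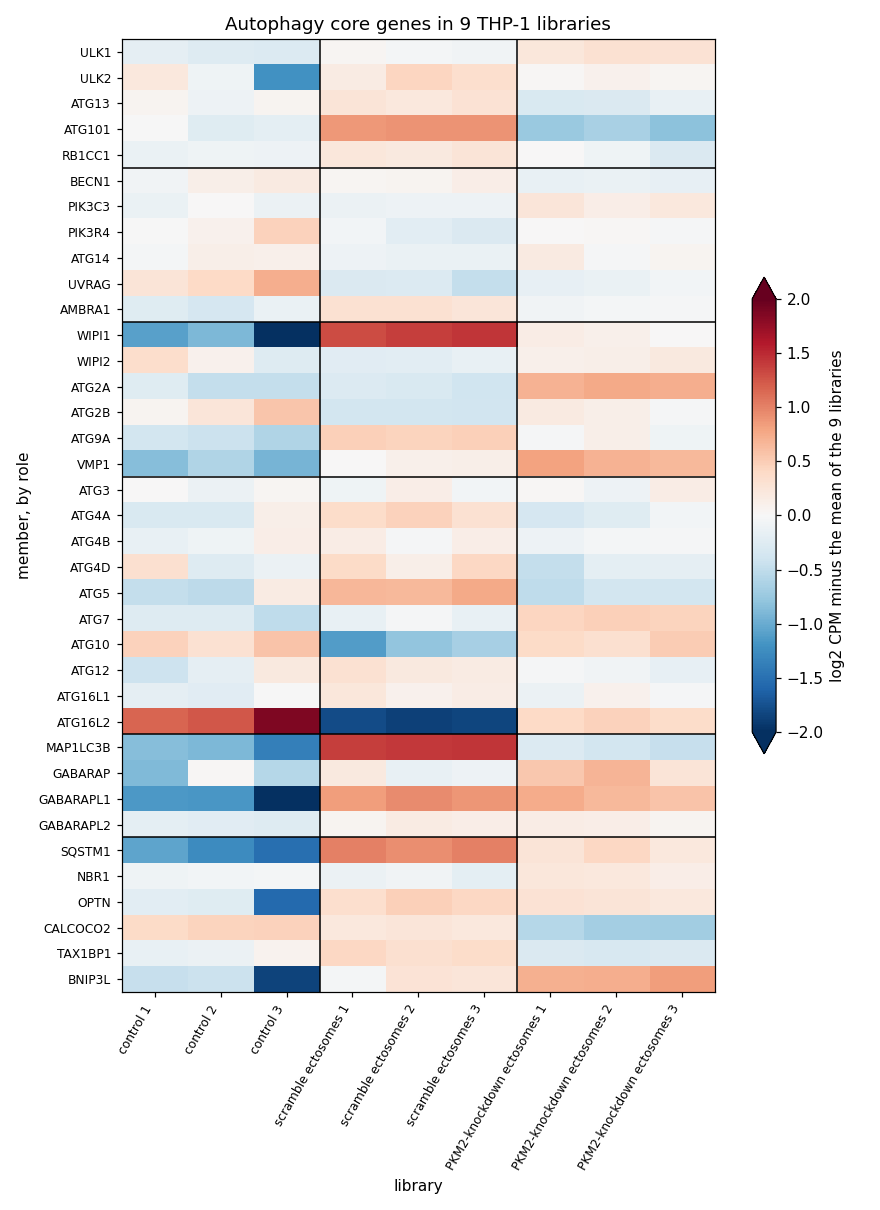
Log2 CPM of each member (rows, by role) in each of the 9 libraries (columns), less the gene's mean over the libraries; red is above and blue below that mean, and colours end at 2 on either side. ATG16L2 runs against MAP1LC3B, WIPI1 and SQSTM1 in the scramble-ectosome libraries, and control replicate 3 is darker blue than the other controls for ULK2, WIPI1, GABARAPL1, OPTN and BNIP3L.

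The initiation complex is made of the kinases ULK1 and ULK2, the adaptors ATG13 and ATG101 and the scaffold RB1CC1 (FIP200). With scramble ectosomes 4 of the 5 genes rose and none fell, and with PKM2-knockdown ectosomes 1 rose and 2 fell. ATG101 (chromosome 12, 52069246 to 52077494, plus strand, GRCh38), which stabilises ATG13, had the widest swing. It stood at 19.9, 16.9 and 17.4 CPM in control, at 36.2, 37.3 and 37.05 CPM with scramble and at 11.9, 12.7 and 11.3 CPM with PKM2-knockdown ectosomes. The groups did not overlap: every scramble library was above every control and every knockdown library below. ATG101 rose 2.04-fold with scramble ectosomes (log2 1.03, SE 0.09, adjusted p = 3.36e-06), fell 1.51-fold below control with the knockdown (log2 -0.60, SE 0.10, adjusted p = 0.000435) and was 3.08-fold lower with the knockdown than with scramble ectosomes (log2 -1.62, SE 0.10, adjusted p = 3.05e-07).

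ATG13 moved the same way with smaller steps. Its libraries held 85.2, 76.8 and 85.5 CPM in control, 98.1, 95.04 and 100.5 CPM with scramble and 66.8, 67.4 and 74.4 CPM with PKM2-knockdown ectosomes. No groups overlapped. Against control ATG13 was 1.19-fold higher with scramble (adjusted p = 0.0140) and 1.19-fold lower with knockdown ectosomes (adjusted p = 0.0193), and the kinds of ectosomes differed 1.41-fold (adjusted p = 0.000239). ULK1, the kinase that other members of the complex activate, had another order and was highest with the knockdown: 65.4 ± 2.27 CPM in control, 76.1 ± 3.21 CPM with scramble and 93.3 ± 2.71 CPM with knockdown ectosomes, where it was 1.43-fold above control (log2 0.51, SE 0.07, adjusted p = 0.000116). RB1CC1 stood at 52.5 ± 0.973, 66.1 ± 1.61 and 52.1 ± 5.31 CPM in the same order, a rise of 1.26-fold with scramble ectosomes (adjusted p = 0.00429). With the knockdown RB1CC1 gave log2 -0.01 against control (SE 0.08, adjusted p = 0.937) and was 1.27-fold below scramble (adjusted p = 0.00424). ULK2 was near the bottom of the members' levels, at 4.20 ± 1.85, 6.19 ± 0.551 and 5.15 ± 0.132 CPM, and was called nowhere.

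With scaling by library totals only ATG101 of this complex stayed called against control with scramble ectosomes, the rises of ULK1, ATG13 and RB1CC1 not passing (their adjusted p spanned 0.01 to 0.875, 0.00151 to 0.583 and 0.000721 to 0.215 over all alternatives), nor did the difference of RB1CC1 between the kinds of ectosomes (0.00019 to 0.117). Single libraries also decided calls: that of ULK1 with scramble ectosomes ended without scramble replicate 1 (adjusted p = 0.0619), that of ATG13 without control replicate 2 (0.0577), and that of ATG13 with knockdown ectosomes against control without control replicate 1 (0.0515), knockdown replicate 1 (0.0737) or knockdown replicate 2 (0.0932), in a range of 0.00615 to 0.0932. With no filter the rises of ULK1 (0.0982) and ATG13 (0.0683) with scramble ectosomes also ended, as did that of ULK1 with only the groups compared (0.0765). ULK2 passed with scramble ectosomes when control replicate 1 was left out (0.0204, the lowest of a range that reached 0.302).

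The class III PI3 kinase complex makes the lipid that recruits later factors. Of its 6 genes, 1 rose and 2 fell in each of the comparisons (16.7% and 33.3%), where 27.0% to 34.6% of all genes rose and 26.7% to 33.2% fell. None of these calls reached 2-fold with TMM scaling, and with library totals the fall of UVRAG with scramble ectosomes was 2.03-fold. UVRAG (chromosome 11, 75815167 to 76143195, plus strand), the subunit of the endosomal form of the complex, had the deepest fall. It stood at 45.9, 50.4 and 63.1 CPM in control, at 31.2, 31.7 and 27.5 CPM with scramble and at 34.2, 34.9 and 36.96 CPM with PKM2-knockdown ectosomes. All 6 ectosome libraries were below all 3 controls. The fall was 1.76-fold with scramble (log2 -0.82, SE 0.12, adjusted p = 0.000104) and 1.503-fold with knockdown ectosomes (log2 -0.59, SE 0.12, adjusted p = 0.00157), and the kinds of ectosomes did not differ at the threshold (log2 0.23, SE 0.12, adjusted p = 0.112). ATG14, the subunit of the autophagosomal form, stood at 26.9 ± 1.62, 23.7 ± 0.347 and 27.1 ± 1.94 CPM and was called nowhere.

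AMBRA1, which tethers BECN1 and supports ULK1, rose 1.43-fold with scramble ectosomes, from 35.7 ± 2.61 to 51.2 ± 1.37 CPM (log2 0.52, SE 0.08, adjusted p = 0.000131), and stood at 40.9 ± 0.701 CPM with the knockdown, 1.25-fold below scramble (adjusted p = 0.00363). The lipid kinase PIK3C3 (VPS34) stood at 38.7 ± 2.09 CPM in control and 38.0 ± 0.190 CPM with scramble ectosomes, and was higher with the knockdown, at 46.9 ± 1.88 CPM, by 1.21-fold against control (adjusted p = 0.00880) and by 1.24-fold against scramble (adjusted p = 0.00417). BECN1 (beclin 1) was at 51.6 ± 4.61, 51.5 ± 1.74 and 44.1 ± 0.434 CPM, 1.17-fold lower with the knockdown than in either other group (adjusted p = 0.0354 against control and 0.0320 against scramble). The regulatory kinase PIK3R4 (VPS15) fell 1.30-fold with scramble ectosomes, from 31.9 ± 5.67 to 24.6 ± 1.96 CPM (adjusted p = 0.0182), and stood at 27.97 ± 0.576 CPM with the knockdown.

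Several of these small calls hung on single libraries or the scaling. The call of BECN1 between the kinds of ectosomes ended without any 1 of the 6 ectosome libraries (adjusted p from 0.0544 to 0.104, in a range of 0.00392 to 0.605), and against control without control replicate 2 (0.0903), any knockdown library (0.0838 to 0.0992) or any scramble library (0.0548 to 0.0588), in a range of 0.00785 to 0.0992, and with the replicate block (0.0503). With no filter the BECN1 calls against scramble (0.110) and against control (0.0569) also ended, the latter with only the groups compared as well (0.0735). The call of PIK3R4 ended without scramble replicate 2 (0.0577) or 3 (0.0770), in a range of 0.00115 to 0.0770. Without control replicate 3, UVRAG (0.00949), PIK3R4 (0.0382) and ATG14 (0.0359) were higher with knockdown than with scramble ectosomes, and AMBRA1 was higher with knockdown ectosomes than in control (0.00516). ATG14 was lower with scramble ectosomes without control replicate 1 (0.0491). With scaling by library totals 5 of the 6 genes were lower with scramble ectosomes, 4 were higher with knockdown than with scramble ectosomes, and the difference of AMBRA1 and BECN1 between them was not called. Under that scaling 41.4% of all genes were lower with scramble ectosomes, and 38.2% were higher with knockdown than with scramble ectosomes.

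The factors that grow the phagophore comprise the lipid sensors WIPI1 and WIPI2, the lipid carriers ATG2A and ATG2B and the membrane proteins ATG9A and VMP1. With scramble ectosomes 3 of these 6 rose and 1 fell. With PKM2-knockdown ectosomes 4 rose and none fell, and all 6 differed between the kinds of ectosomes, 4 higher and 2 lower with the knockdown. WIPI1 (chromosome 17, 68420948 to 68457513, minus strand) stood at 5.06, 5.77 and 2.04 CPM in control, at 26.5, 28.1 and 28.8 CPM with scramble and at 11.8, 11.5 and 10.8 CPM with PKM2-knockdown ectosomes. No groups overlapped, and the lowest control was replicate 3. WIPI1 rose 6.39-fold with scramble ectosomes (log2 2.68, SE 0.26, adjusted p = 5.35e-06), 5.09-fold without control replicate 3. With the knockdown it was 2.62-fold above control (log2 1.39, SE 0.26, adjusted p = 0.00114), 2.09-fold without that library, and 2.44-fold below scramble (log2 -1.29, SE 0.24, adjusted p = 0.000828). Of the exonic bases of WIPI1 28.1% lie in genes on the other strand, among them ARSG, and the sources used here do not state the strand setting of the counting.

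ATG2A (chromosome 11, 64894546 to 64917248, minus strand) was highest with knockdown ectosomes. It stood at 57.4, 49.1 and 48.7 CPM in control, at 56.3, 55.1 and 52.0 CPM with scramble and at 110, 115 and 113 CPM with PKM2-knockdown ectosomes. The control and scramble libraries overlapped, and every knockdown library was above them all. ATG2A exceeded control 2.18-fold (log2 1.12, SE 0.08, adjusted p = 1.60e-06) and scramble 2.07-fold (log2 1.05, SE 0.08, adjusted p = 1.78e-06), while scramble against control gave log2 0.07 (SE 0.08, adjusted p = 0.441). Its paralog ATG2B moved otherwise: it fell 1.59-fold with scramble ectosomes, from 38.5 ± 6.78 to 24.2 ± 0.115 CPM (log2 -0.67, SE 0.12, adjusted p = 0.000536), and at 33.4 ± 2.42 CPM was 1.38-fold higher with the knockdown than with scramble (adjusted p = 0.00653).

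VMP1 (chromosome 17, 59707192 to 59842255, plus strand), a scramblase of the endoplasmic reticulum, stood at 85.7, 102 and 81.4 CPM in control, at 156, 166 and 168 CPM with scramble and at 269, 251 and 242 CPM with PKM2-knockdown ectosomes. The 3 groups were apart, in that order. VMP1 rose 1.82-fold with scramble (log2 0.87, SE 0.09, adjusted p = 1.32e-05) and 2.83-fold with knockdown ectosomes (log2 1.501, SE 0.10, adjusted p = 6.51e-07), a difference of 1.55-fold between them (log2 0.63, SE 0.09, adjusted p = 0.000171). The gene of the microRNA miR-21 lies in the VMP1 locus on the same strand and shares 1.0% of its exonic bases. ATG9A, the scramblase that arrives in vesicles, had the reverse order of the ectosome groups, with 26.2 ± 2.10 CPM in control, 50.1 ± 0.448 CPM with scramble and 36.5 ± 2.74 CPM with the knockdown. ATG9A was 1.91-fold (adjusted p = 4.26e-06) and 1.39-fold (adjusted p = 0.00102) above control, and 1.37-fold lower with the knockdown than with scramble (adjusted p = 0.000951). As 38.8% of the exonic bases of ATG9A are shared with another annotated gene of the same strand, its level is uncertain. WIPI2, at 160 ± 33.0, 132 ± 3.60 and 167 ± 5.81 CPM, was higher with the knockdown than with scramble ectosomes by 1.26-fold (adjusted p = 0.0362). The WIPI2 call ended without any 1 of the 6 ectosome libraries (adjusted p from 0.0653 to 0.107) and with the replicate block (0.0516), in a range of 6.05e-06 to 0.107. Without control replicate 3 WIPI2 was lower with scramble ectosomes than in control (2.73e-05, in a range of 2.73e-05 to 0.309), and without control replicate 1 ATG2B was lower with knockdown ectosomes than in control (0.0333, in a range of 0.0333 to 0.516).

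**Figure D3:**
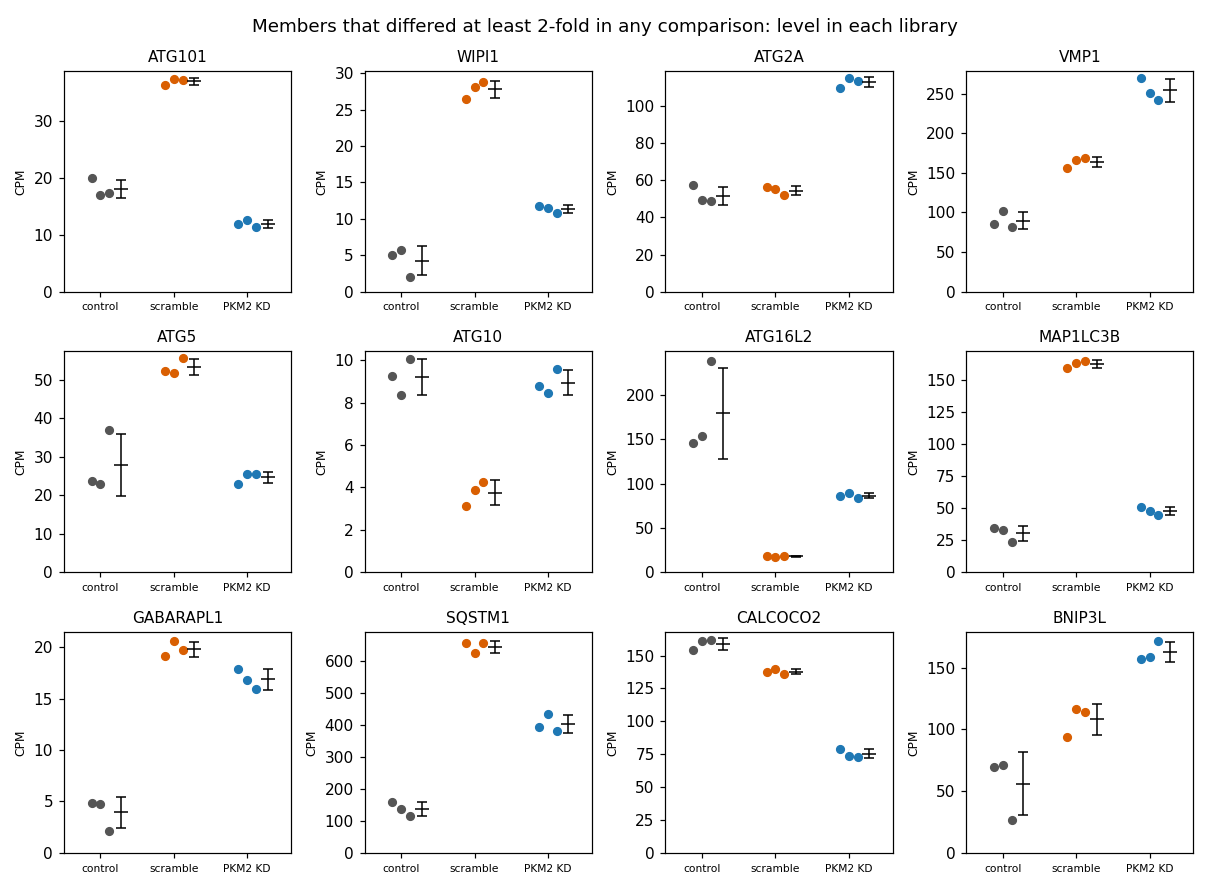
TMM-scaled CPM (linear axes from 0) in each of the 3 libraries of control cells (grey), cells given scramble ectosomes (orange) and cells given PKM2-knockdown ectosomes (blue), for the 12 members that were called with a difference of at least 2-fold in any comparison; bars are the mean and SD of the 3. ATG101, ATG5 and MAP1LC3B are highest with scramble ectosomes, ATG10 and ATG16L2 are lowest there, and ATG2A, VMP1 and BNIP3L are highest with knockdown ectosomes. Rises and falls of at least 2-fold against control were 5 and 2 with scramble ectosomes (all 18437 genes: 3335 and 3413). They were 6 and 2 with knockdown ectosomes (2682 and 1331), and 3 and 4 with the knockdown against scramble (3319 and 1995). The share of all genes with such a call in any comparison was not counted.

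The conjugation systems use the activating enzyme ATG7, the transfer enzymes ATG3 and ATG10, the ATG12, ATG5 and ATG16L1 ligase complex and the ATG4 proteases. With scramble ectosomes 5 of these 10 genes rose and 2 fell. With PKM2-knockdown ectosomes only ATG7 rose and only ATG16L2 fell against control, and between the kinds of ectosomes 3 were higher and 3 lower with the knockdown. ATG16L2 (chromosome 11, 72814308 to 72843674, plus strand), a paralog of ATG16L1 that is not needed for canonical autophagy, had the largest difference of any member. It stood at 146, 154 and 238 CPM in control, at 18.8, 17.7 and 18.1 CPM with scramble and at 85.5, 89.1 and 84.0 CPM with PKM2-knockdown ectosomes. No groups overlapped, and control replicate 3 was the highest library. ATG16L2 fell 9.82-fold with scramble ectosomes (log2 -3.30, SE 0.17, adjusted p = 5.33e-08), 8.22-fold without control replicate 3. With the knockdown it was 2.08-fold below control (log2 -1.05, SE 0.16, adjusted p = 0.000234), 1.74-fold without that library, and 4.73-fold above scramble (log2 2.24, SE 0.17, adjusted p = 1.36e-06). Its promoter window is the one printed above without a match.

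ATG16L1, the subunit of the ligase complex that places the ATG8 proteins, stood at 34.2 ± 2.80, 41.6 ± 2.10 and 37.1 ± 2.605 CPM, 1.22-fold above control with scramble ectosomes (adjusted p = 0.0163). ATG5 (chromosome 6, 106045423 to 106325791, minus strand), the partner of ATG12, stood at 23.6, 23.0 and 37.1 CPM in control, at 52.4, 51.9 and 55.6 CPM with scramble and at 23.1, 25.5 and 25.5 CPM with PKM2-knockdown ectosomes. The scramble libraries were above all others, and the knockdown libraries lay within the range of the controls. ATG5 rose 1.91-fold with scramble ectosomes (log2 0.94, SE 0.16, adjusted p = 0.000358), 2.29-fold without control replicate 3, and was 2.16-fold lower with the knockdown than with scramble (log2 -1.11, SE 0.16, adjusted p = 0.000146). Against control the knockdown gave log2 -0.17 (SE 0.16, adjusted p = 0.394). ATG12 stood at 47.4 ± 10.2, 59.9 ± 3.10 and 48.4 ± 2.32 CPM and rose 1.26-fold with scramble ectosomes (adjusted p = 0.0384).

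ATG10 (chromosome 5, 81972025 to 82276857, plus strand), the transfer enzyme for ATG12, was lowest with scramble ectosomes. It stood at 9.27, 8.35 and 10.1 CPM in control, at 3.11, 3.90 and 4.26 CPM with scramble and at 8.79, 8.44 and 9.60 CPM with PKM2-knockdown ectosomes. The scramble libraries were below all others, while control and knockdown overlapped. ATG10 fell 2.45-fold with scramble ectosomes (log2 -1.29, SE 0.15, adjusted p = 2.18e-05), and the knockdown was 2.38-fold above scramble (log2 1.25, SE 0.15, adjusted p = 4.07e-05). ATG7, the activating enzyme of both systems, rose from 54.9 ± 5.45 CPM to 64.4 ± 3.36 CPM with scramble (1.17-fold, adjusted p = 0.0329) and to 94.8 ± 1.14 CPM with knockdown ectosomes (1.73-fold, adjusted p = 2.52e-05), a difference of 1.47-fold between them (adjusted p = 0.000202). ATG3, the transfer enzyme for the ATG8 proteins, was at 55.9 ± 3.38, 56.7 ± 4.73 and 57.8 ± 5.11 CPM, with log2 differences of 0.02 to 0.05.

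Among the ATG4 proteases, which trim the ATG8 proteins before conjugation and release them afterwards, ATG4A stood at 9.62 ± 1.66, 13.8 ± 0.756 and 9.27 ± 0.949 CPM. It was 1.44-fold higher with scramble ectosomes than in control (adjusted p = 0.00637) and 1.49-fold lower with the knockdown than with scramble (adjusted p = 0.00434). ATG4D, at 23.1 ± 4.97, 28.6 ± 3.06 and 19.1 ± 2.17 CPM, was 1.504-fold lower with the knockdown than with scramble (adjusted p = 0.00693) and not called against control. ATG4B, the main protease, was at 70.9 ± 7.67, 76.9 ± 4.96 and 69.6 ± 2.06 CPM and called nowhere.

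The small rises of this group with scramble ectosomes did not hold everywhere. Under library-total scaling those of ATG7, ATG12 and ATG16L1 were not called. In that order they also ended with no filter (adjusted p = 0.129, 0.0732 and 0.0588) and with only the groups compared (0.141, 0.117 and 0.0525). The rise of ATG7 also ended without scramble replicate 2 (adjusted p = 0.120, in a range of 0.028 to 0.851), and that of ATG16L1 without control replicate 2 (0.0596) or scramble replicate 1 (0.0590), in a range of 0.000531 to 0.401. The rise of ATG12 ended without any 1 of 7 libraries (control replicates 1 and 2, the 3 scramble libraries and knockdown replicates 1 and 3; adjusted p from 0.0525 to 0.134) and with the replicate block (0.0542), in a range of 9.09e-06 to 0.345. Without control replicate 3, ATG4B was higher with scramble ectosomes than in control (0.0106), ATG12 (0.000586), ATG16L1 (0.0400) and ATG4B (0.0373) were lower with the knockdown than with scramble, and with knockdown ectosomes against control ATG12 (0.0318) and ATG16L1 (0.0493) were higher and ATG4D (0.0447) lower. Without control replicate 1, ATG4D was higher with scramble ectosomes than in control (0.00787) and ATG12 lower with the knockdown than with scramble (0.0233).

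All 4 ATG8 genes rose with PKM2-knockdown ectosomes against control and 3 of 4 with scramble ectosomes, and 1 fell between the kinds of ectosomes, where 27.0% and 34.6% of all genes rose and 30.3% fell. MAP1LC3B (chromosome 16, 87383995 to 87404779, plus strand) encodes LC3B, the protein most used to trace autophagosomes. It stood at 34.2, 33.1 and 23.7 CPM in control, at 160, 163 and 165 CPM with scramble and at 51.1, 47.6 and 44.8 CPM with PKM2-knockdown ectosomes. The 3 groups were apart, with the scramble libraries far above the rest. MAP1LC3B rose 5.35-fold with scramble ectosomes (log2 2.42, SE 0.13, adjusted p = 5.27e-08) and 1.57-fold with the knockdown (log2 0.65, SE 0.12, adjusted p = 0.00112), and was 3.40-fold lower with the knockdown than with scramble (log2 -1.77, SE 0.12, adjusted p = 8.38e-07). The near-identical copy MAP1LC3B2 had 25 to 142 reads per library and the same order of groups, at 1.451 ± 0.330, 6.16 ± 0.407 and 1.70 ± 0.0958 CPM. Reads of these copies may have been exchanged, so neither level is certain. MAP1LC3B2 and MAP1LC3A are named after their values were seen. MAP1LC3A, which encodes LC3A, had another pattern: at 12.2 ± 5.01 CPM in control, it was 2.22-fold lower with scramble ectosomes at 5.51 ± 0.539 CPM (adjusted p = 0.00251) and 4.96-fold higher with the knockdown at 60.7 ± 5.74 CPM (adjusted p = 2.09e-05), or 2.69-fold lower and 4.09-fold higher without control replicate 3.

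GABARAPL1 (chromosome 12, 10212458 to 10223130, plus strand), the other ATG8 gene whose promoter is printed above, stood at 4.85, 4.78 and 2.15 CPM in control, at 19.1, 20.6 and 19.7 CPM with scramble and at 17.9, 16.8 and 15.9 CPM with PKM2-knockdown ectosomes. All ectosome libraries were above all controls, and those of the knockdown were below those of scramble. GABARAPL1 rose 4.996-fold with scramble (log2 2.32, SE 0.22, adjusted p = 5.10e-06) and 4.26-fold with knockdown ectosomes (log2 2.09, SE 0.23, adjusted p = 2.47e-05), or 4.10-fold and 3.50-fold without control replicate 3. The difference between the kinds of ectosomes was log2 -0.23 (SE 0.20, adjusted p = 0.341), and it passed without control replicate 3 (adjusted p = 0.0235, in a range of 0.0235 to 0.835). Whether the differences of MAP1LC3B and GABARAPL1 between the kinds of ectosomes differ from each other was not tested.

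GABARAPL2 stood at 46.0 ± 0.920, 58.3 ± 2.17 and 58.0 ± 1.87 CPM. It was 1.27-fold above control with scramble (adjusted p = 0.00108) and 1.26-fold above control with knockdown ectosomes (adjusted p = 0.00183). With scaling by library totals the first of these was not called (range of adjusted p 6.77e-05 to 0.102). GABARAP was at 1.83 ± 0.601, 2.44 ± 0.316 and 3.49 ± 0.508 CPM, 1.89-fold above control with the knockdown (log2 0.91, SE 0.24, adjusted p = 0.00900). As 55.7% of its exonic bases are shared with other annotated genes, of which 1 lies on the same strand, its low level is uncertain. GABARAP passed against scramble ectosomes without control replicate 2 (0.0420) or 3 (0.0347), in a range of 0.0142 to 0.229, and with scramble ectosomes against control when control replicate 2 was left out (0.0280, the lowest of a range that reached 0.542).

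Cargo receptors bind ubiquitin or an organelle on one side and ATG8 proteins on the other. With scramble ectosomes 4 of 6 rose and 1 fell, with PKM2-knockdown ectosomes 4 rose and 2 fell, and between the kinds of ectosomes 1 was higher and 3 lower with the knockdown. SQSTM1 (chromosome 5, 179806398 to 179838078, plus strand), the receptor of protein aggregates and itself an autophagy substrate, had the highest level per length of any member in both ectosome groups. It stood at 158, 136 and 116 CPM in control, at 656, 624 and 656 CPM with scramble and at 393, 435 and 380 CPM with PKM2-knockdown ectosomes. No groups overlapped. SQSTM1 rose 4.72-fold with scramble (log2 2.24, SE 0.11, adjusted p = 4.45e-08) and 2.95-fold with knockdown ectosomes (log2 1.56, SE 0.11, adjusted p = 1.45e-06), and was 1.60-fold lower with the knockdown than with scramble (log2 -0.68, SE 0.11, adjusted p = 0.000312). Genes on the other strand (MGAT4B and MRNIP) share 22.0% of its exonic bases.

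BNIP3L (NIX), a receptor on the mitochondrial outer membrane, stood at 70.0, 71.3 and 26.7 CPM in control, at 93.6, 117 and 114 CPM with scramble and at 157, 159 and 172 CPM with PKM2-knockdown ectosomes. The groups did not overlap, and control replicate 3 was far below the other controls. BNIP3L rose 1.93-fold with scramble (log2 0.95, SE 0.28, adjusted p = 0.0115) and 2.90-fold with knockdown ectosomes (log2 1.54, SE 0.28, adjusted p = 0.000985), or 1.53-fold and 2.30-fold without control replicate 3. The difference of 1.503-fold between the kinds of ectosomes did not pass (log2 0.59, SE 0.28, adjusted p = 0.0874), but did without that library (adjusted p = 4.57e-07, in a range of 2.76e-07 to 0.234). OPTN (optineurin), a receptor of bacteria and damaged mitochondria, was also low in control replicate 3: it stood at 70.0, 69.0 and 27.6 CPM in control, 103, 113 and 109 CPM with scramble and 98.9, 97.3 and 94.1 CPM with knockdown ectosomes. Again no groups overlapped. OPTN rose 1.95-fold with scramble (adjusted p = 0.00725) and 1.74-fold with knockdown ectosomes (adjusted p = 0.0242), or 1.56-fold and 1.39-fold without control replicate 3. The rise with knockdown ectosomes was not called without any 1 of the 3 knockdown libraries (adjusted p from 0.0533 to 0.0634, in a range of 2.79e-06 to 0.0634) or with only the groups compared (0.0622). Without control replicate 3 OPTN was lower with the knockdown than with scramble (0.0136, in a range of 0.0136 to 0.971).

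CALCOCO2 (NDP52; chromosome 17, 48830988 to 48866522, plus strand), a receptor of invading bacteria and mitochondria, went down. It stood at 154, 161 and 162 CPM in control, at 137, 140 and 136 CPM with scramble and at 79.2, 73.5 and 73.1 CPM with PKM2-knockdown ectosomes. The groups were apart, with the knockdown libraries lowest. CALCOCO2 fell 2.11-fold with the knockdown (log2 -1.08, SE 0.07, adjusted p = 6.28e-07) and was 1.83-fold lower there than with scramble (log2 -0.87, SE 0.07, adjusted p = 1.84e-06). Its fall of 1.16-fold with scramble ectosomes (adjusted p = 0.0184) was not called without any 1 of the scramble libraries (adjusted p from 0.0518 to 0.0727, in a range of 0.000367 to 0.0727).

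TAX1BP1, a relative of CALCOCO2 that also restrains inflammatory signalling, moved in opposite directions. It stood at 204, 208 and 237 CPM in control, at 302, 284 and 293 CPM with scramble and at 185, 182 and 186 CPM with PKM2-knockdown ectosomes. No groups overlapped. TAX1BP1 was 1.35-fold above control with scramble (log2 0.44, SE 0.08, adjusted p = 0.000514), 1.18-fold below it with knockdown ectosomes (log2 -0.23, SE 0.08, adjusted p = 0.0273) and 1.59-fold lower with the knockdown than with scramble (log2 -0.67, SE 0.08, adjusted p = 3.28e-05). The fall against control was not called without any 1 of the knockdown libraries (adjusted p from 0.0582 to 0.104, in a range of 0.0104 to 0.104) or with only the groups compared (0.0604). NBR1, the receptor that pairs with SQSTM1, stood at 52.8 ± 0.928, 50.6 ± 2.18 and 63.1 ± 2.26 CPM, and with the knockdown it exceeded control 1.19-fold (adjusted p = 0.00950) and scramble 1.25-fold (adjusted p = 0.00224). Under library-total scaling NBR1 was also lower with scramble ectosomes than in control (range of adjusted p 0.00611 to 0.833).

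The members that differed from control by at least 2-fold, or lay on opposite sides of it, kept their calls without control replicate 3. In that fit MAP1LC3B rose 4.82-fold with scramble and 1.42-fold with knockdown ectosomes, SQSTM1 rose 4.38-fold and 2.73-fold, and VMP1 rose 1.74-fold and 2.698-fold. ATG101 rose 2.01-fold with scramble and fell 1.54-fold with knockdown ectosomes, ATG13 rose 1.21-fold and fell 1.17-fold, and TAX1BP1 rose 1.42-fold and fell 1.12-fold. ATG10 fell 2.35-fold with scramble, ATG2A rose 2.12-fold with knockdown and CALCOCO2 fell 2.10-fold with knockdown ectosomes. UVRAG fell 1.60-fold and 1.37-fold.

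**Figure D4:**
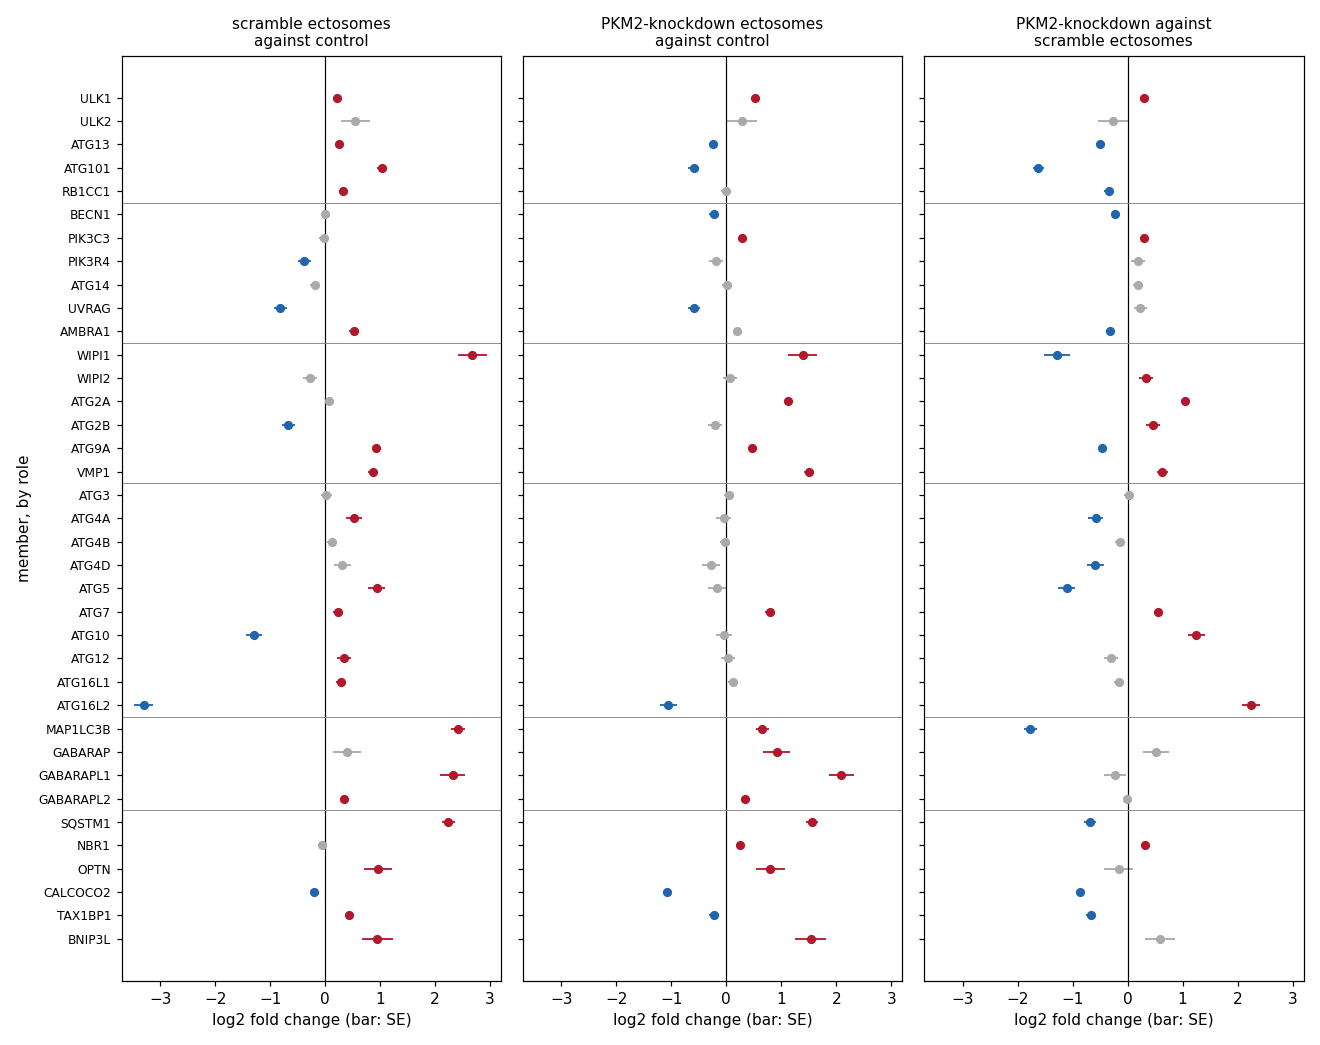
Log2 fold change of each member (rows, grouped by role as in the text) in the 3 comparisons, with bars of 1 SE; red points were called higher, blue called lower and grey not called at adjusted p under 0.05, with TMM scaling and all 9 libraries. Points reach from -3.30 (ATG16L2) to 2.68 (WIPI1) with scramble ectosomes and lie between -1.08 (CALCOCO2) and 2.09 (GABARAPL1) with knockdown ectosomes.

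Overlap with other annotated genes touched 8 members at over 10% of their exonic bases: beside GABARAP, ATG9A, WIPI1 and SQSTM1 these were ATG101 (19.2%), ATG7 (18.1%), BECN1 (17.1%) and ATG4D (15.0%), all with genes on the other strand. Levels of different members can be compared only per length, here as mean CPM per kilobase of all annotated exons of the gene, a length that includes exons THP-1 cells may not use. In control cells TAX1BP1 led at 23.6 CPM per kilobase, followed by ATG16L2 at 20.8, CALCOCO2 at 19.1 and SQSTM1 at 17.9, and the lowest were GABARAPL1 at 0.961, GABARAP at 0.807 and ULK2 at 0.427. With scramble ectosomes the order was led by SQSTM1 at 84.3, TAX1BP1 at 31.9 and MAP1LC3B at 30.6 CPM per kilobase, and ATG16L2 stood at 2.12. With PKM2-knockdown ectosomes SQSTM1 led at 52.6, followed by BNIP3L at 37.8 and VMP1 at 36.7. Within the initiation complex and the PI3 kinase complex the levels in control ranged from 0.427 (ULK2) to 11.8 (ATG13) and from 2.55 (PIK3C3) to 8.37 (UVRAG).

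**Figure D5:**
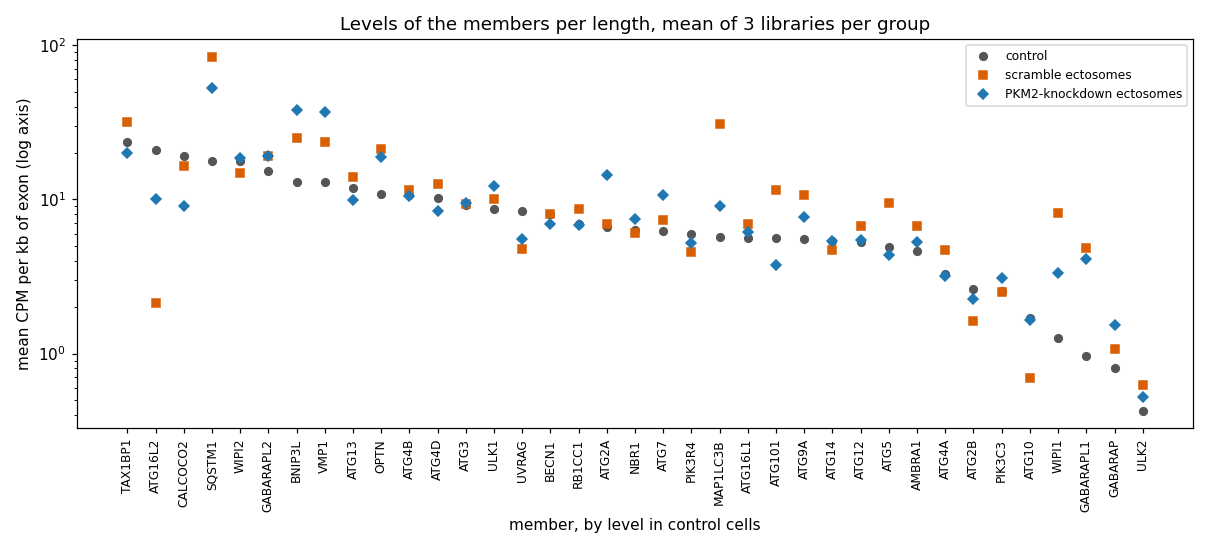
Mean CPM per kilobase of annotated exon (log axis) of each member in control cells (grey circles), with scramble ectosomes (orange squares) and with PKM2-knockdown ectosomes (blue diamonds), 3 libraries each, ordered by the level in control. SQSTM1 reaches 84.3 with scramble ectosomes, and ATG16L2 drops from 20.8 in control to 2.12.

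Genes upstream of the core machinery were taken as a list of mTORC1, AMPK and nutrient-sensing genes with the transcription factors of lysosomes and the stress response, of which 42 were analysed. With scramble ectosomes 23 rose and 11 fell against 34.6% and 33.2% of all genes, with a median log2 difference of 0.31. With PKM2-knockdown ectosomes 14 rose and 6 fell against control (33.3% and 14.3%, against 27.0% and 26.7% of all genes), and 13 were higher and 16 lower than with scramble (31.0% and 38.1%, against 31.4% and 30.3%). TFE3 and TFEB both drive lysosome and autophagy genes. TFE3 stood at 35.1, 34.7 and 29.5 CPM in control, at 157, 151 and 153 CPM with scramble and at 93.0, 93.2 and 98.7 CPM with knockdown ectosomes. Its groups were apart, and TFE3 rose 4.64-fold with scramble (adjusted p = 7.26e-09) and 2.87-fold with knockdown ectosomes (adjusted p = 2.19e-07), with a difference of 1.62-fold (adjusted p = 2.89e-05). TFEB had the reverse order of the ectosome groups, at 28.1, 26.7 and 20.8 CPM in control, 48.2, 51.4 and 52.1 CPM with scramble and 76.8, 90.3 and 106 CPM with knockdown ectosomes. It was 1.80-fold higher with the knockdown than with scramble (log2 0.85, SE 0.13, adjusted p = 0.000243). DEPTOR, an inhibitor within the mTOR complexes, fell from 9.12 ± 1.92 CPM to 0.390 ± 0.0639 CPM with scramble (23.1-fold, adjusted p = 7.72e-08) and to 0.823 ± 0.118 CPM with knockdown ectosomes (10.99-fold, adjusted p = 7.07e-07). NPRL2, a subunit of the complex that turns mTORC1 off when amino acids are short, stood at 18.6 ± 0.581, 6.39 ± 0.512 and 16.5 ± 0.741 CPM, 2.90-fold lower with scramble ectosomes than in control (adjusted p = 3.85e-07). Without control replicate 3 DEPTOR fell 20.5-fold with scramble and 9.73-fold with knockdown ectosomes, TFE3 rose 4.40-fold and 2.72-fold, and NPRL2 fell 2.95-fold with scramble. Without control replicate 2 the rises with knockdown ectosomes against control in this list were 9 in place of 14, and the falls were 3 in place of 6 without knockdown replicate 2. Of all genes, 4884 of 18888 rose in the first of these fits and 3958 of 18912 fell in the second. With all libraries 4978 of 18437 rose and 4926 fell.

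Of 41 further autophagy genes and selective receptors, 17 rose and 9 fell with scramble ectosomes, 18 rose and 6 fell with PKM2-knockdown ectosomes against control, and 11 were higher and 17 lower with the knockdown than with scramble. In the same order these are 41.5% and 22.0% (all genes 34.6% and 33.2%), 43.9% and 14.6% (27.0% and 26.7%), and 26.8% and 41.5% (31.4% and 30.3%). The 4 with the smallest p had the same order, highest with scramble ectosomes. TRIM5, a restriction factor that can assemble autophagy factors, stood at 14.4 ± 1.23, 56.7 ± 1.76 and 33.1 ± 2.26 CPM, 3.92-fold above control with scramble (adjusted p = 2.64e-08). TMEM41B, a scramblase that works with VMP1, stood at 44.8 ± 1.57, 120 ± 1.78 and 61.1 ± 3.93 CPM, 2.67-fold above control with scramble (adjusted p = 4.88e-08). RUBCN (rubicon), an inhibitor of the UVRAG form of the PI3 kinase complex, stood at 17.4 ± 2.49, 60.5 ± 2.32 and 40.2 ± 0.665 CPM, 3.47-fold above control with scramble (adjusted p = 1.04e-07). NRBF2, a regulatory subunit of the PI3 kinase complex, stood at 31.2 ± 0.207, 75.1 ± 1.99 and 34.98 ± 2.22 CPM, 2.41-fold above control with scramble (adjusted p = 1.15e-07). When control replicate 3 was left out, the rises with scramble ectosomes were 3.75-fold for TRIM5, 2.62-fold for TMEM41B, 3.21-fold for RUBCN and 2.396-fold for NRBF2. Without that library, and with scaling by library totals, 17 in place of 11 genes of this list were higher with the knockdown than with scramble. Of all genes, 36.1% and 38.2% were higher in these settings, in that order.

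Fusion of the autophagosome with the lysosome was covered by 22 genes, of which 9 rose and 7 fell with scramble ectosomes, 11 rose and 2 fell with PKM2-knockdown ectosomes against control, and 9 were higher and 8 lower with the knockdown than with scramble. With scramble ectosomes these were 40.9% and 31.8% of the list, near the 34.6% and 33.2% of all genes. Against control the knockdown gave 27.0% rises and 26.7% falls over all genes, beside 11 and 2 of the 22 here. Between the kinds of ectosomes the list gave 40.9% and 36.4%, and all genes 31.4% and 30.3%. YKT6, a SNARE of this fusion, stood at 107 ± 9.38, 312 ± 5.45 and 153 ± 4.68 CPM, 2.92-fold above control with scramble (adjusted p = 5.61e-08). PLEKHM1, an adaptor between RAB7, the tether and LC3, stood at 27.7 ± 2.29, 82.4 ± 4.59 and 47.2 ± 4.65 CPM, 2.97-fold above control with scramble (adjusted p = 1.75e-07). VAMP8, a SNARE on the lysosome, fell from 255 ± 46.3 CPM to 96.3 ± 6.48 CPM with scramble (2.65-fold, adjusted p = 2.95e-06) and to 121 ± 10.4 CPM with knockdown ectosomes (2.11-fold, adjusted p = 4.21e-05). LAMP1, a main glycoprotein of the lysosomal membrane, stood at 198 ± 10.7, 229 ± 3.88 and 128 ± 5.56 CPM and was 1.79-fold lower with the knockdown than with scramble (adjusted p = 4.10e-06). VAMP8 fell 2.38-fold with scramble and 1.90-fold with knockdown ectosomes without control replicate 3, and in that fit YKT6 rose 2.78-fold and PLEKHM1 2.84-fold with scramble. Under library-total scaling the list split into 6 higher and 10 lower with scramble ectosomes, and the upstream list into 20 and 14. These are 27.3% and 45.5% of the fusion list, near the 27.8% and 41.4% of all genes in that setting. Of the upstream list they are 47.6% and 33.3%.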

How the data were processed

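Total RNA of 9 THP-1 samples was sequenced. Libraries were made from 3 µg of Trizol-extracted RNA with the NEBNext Ultra kit and run on an Illumina HiSeq instrument, per the labels' protocols. The authors deposited 1 table of raw counts of reads per gene symbol, not normalized. The submitters' processing notes name HISAT2 2.0.5, featureCounts 1.5.0-p3 and GRCh38 (hg38). Which annotation release, strand setting and filters were used is not given in the sources used here. Reads of overlapping genes may therefore be shared or lost, and opposite strands cannot be told apart.

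The counts were tested with edgeR 4.0.16 (R 4.3.3). Rows were filtered with filterByExpr by group, which left 18437 of 30000 rows with 99.8% or more of each library's counts, and libraries were scaled by TMM. All 9 libraries entered 1 quasi-likelihood fit with group as the only term (6 residual degrees of freedom, common coefficient of variation 13.3%). Tests were two-sided with Benjamini-Hochberg adjustment over all rows tested. All adjusted p-values printed for genes come from this test or, where stated, from an alternative of it. SEs were taken as the absolute log2 fold change over the square root of the F statistic. The steps were tested on simulated data.

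All 37 members are named. From each of 3 pathway lists up to 4 genes with the smallest p were named. The members and lists were chosen with earlier results of these data known. Positions, exonic lengths and overlaps are from GENCODE 29 on GRCh38, in which all 37 members were found, and promoters from RefSeq on GRCh38.p14. The replicate numbers were not taken as pairing the samples, since deviations from the group means of same-numbered samples correlated at -0.094 to 0.067.

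Alternatives were DESeq2 size factors, library totals in place of TMM, no filter, the DESeq2 1.42.0 Wald test, a fit of only the groups compared, a fold threshold of 1.5, the replicate number as a block, and leaving out each library. Those for the pathway lists, and the values of other genes without control replicate 3, were added after seeing the data.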

Additional observations from a re-analysis of the deposited data

Results flagged for a closer look

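For 3 members both kinds of ectosomes were called against control in opposite directions, and the difference between their effects was itself called by the test of PKM2-knockdown against scramble ectosomes. The share of all genes that did the same was not counted, so these 3 are descriptions without a background. ATG101 differed by -1.625 on the log2 scale, with all 3 scramble libraries above and all 3 knockdown libraries below the controls. TAX1BP1 differed by -0.669 and ATG13 by -0.493, both with the same positions of the groups. The opposite directions of these 2 rest on calls that single libraries or other settings end. The fall of TAX1BP1 against control was not called without any 1 of the knockdown libraries (adjusted p from 0.0582 to 0.104) or with only the groups compared (0.0604). That of ATG13 was not called without control replicate 1 (0.0515), knockdown replicate 1 (0.0737) or knockdown replicate 2 (0.0932), and its rise with scramble ectosomes not without control replicate 2 (0.0577), with library totals (0.583) or with no filter (0.0683). The effects share the 3 control libraries, whose errors enter both with the same sign.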

How the results depend on the processing

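Of 1665 values of the members (37 genes, 3 comparisons, 15 alternative fits), 1507 kept their direction and side of the threshold, 42 gained a call, 72 lost one and 44 changed sign. None of the reversed values had been called. Depth limits the lowest members: the lowest count was 25 reads (GABARAP in control replicate 1), a counting error of 20.0%, and WIPI1, GABARAPL1 and ULK2 had 37 to 39 reads in control replicate 3, an error of 16.0% to 16.4%, where the common coefficient of variation was 13.3%.

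With scaling by library totals, 13 members were higher and 11 lower with scramble ectosomes against control, where 27.8% and 41.4% of all genes were. Counting only calls of at least 1.5-fold left 10 members higher and 4 lower with scramble ectosomes, where 4895 and 4889 of the 18437 genes were. It left 4 higher and 8 lower with the knockdown against scramble, where 4674 of all genes were higher. The 8 has no count of all genes at that threshold beside it here. At 2-fold 3 members were higher and 4 lower there, where 3319 and 1995 of all genes were. With the knockdown against control the threshold of 1.5-fold left 4 lower, where 3063 of all genes were lower. Leaving out 1 library in turn, with no fold threshold, the members lower with the knockdown against control ran from 4 to 8, in place of 7. All genes lower ran from 3958 to 5455 in the same fits, in place of 4926. For the upstream list, fitting only the groups compared left 9 rises with the knockdown against control, and leaving out 1 library gave 9 to 16 rises and 3 to 9 falls. For the further autophagy genes, 17 (library totals), 18 (only the groups compared) and, leaving out 1 library, 9 to 17 were higher with the knockdown than with scramble. Over all genes, 4280 of 17419 rose with the knockdown against control when only the groups compared were fitted. Leaving out 1 library gave 4399 to 5542 such rises over all genes, and the falls given above. Higher with the knockdown than with scramble were 7051 of 18437 genes with library totals and 6646 of 17676 with only the groups compared. That count ran from 5113 to 6874 when 1 library was left out.

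With the replicate number as a block, 19 members were higher and 6 lower with scramble ectosomes, 9 higher and 14 lower with the knockdown against scramble, and 15 higher and 6 lower with the knockdown against control. All genes gave 33.99% and 32.07%, 30.45% and 29.4%, and 25.99% and 25.0% in the same order. The calls lost were those of ATG12, WIPI2 and BECN1 given beside them. BECN1 reversed to 0.0002 with scramble ectosomes.

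The other reversals were of log2 differences of at most 0.287 in size. The largest were those of ULK2 (0.287) and ATG5 (-0.173) with the knockdown against control and of ATG16L1 (-0.164) and OPTN (-0.162) with the knockdown against scramble. With library totals, scramble against control gave -0.13 for ATG2A, -0.18 for ATG3 and -0.084 for ATG4B, and the knockdown against scramble gave 0.029 for ATG4B, 0.0093 for ATG16L1, 0.17 for GABARAPL2 and 0.013 for OPTN. ATG14 with the knockdown against control was -0.026 with library totals, -0.0053 with DESeq2 size factors, -0.0058 with the DESeq2 Wald test and -0.013 with no filter. With no filter ATG3 was -0.021 with scramble ectosomes and GABARAPL2 0.020 with the knockdown against scramble. With only the groups compared these were -0.027 and 0.011.

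Leaving out 1 library in turn, the knockdown against control ran from -0.016 to 0.56 for ULK2, -0.073 to 0.070 for RB1CC1, -0.050 to 0.066 for ATG14, -0.082 to 0.21 for WIPI2, -0.013 to 0.13 for ATG3, -0.13 to 0.092 for ATG4A, -0.0873 to 0.061 for ATG4B, -0.30 to 0.082 for ATG5, -0.11 to 0.020 for ATG10 and -0.0995 to 0.21 for ATG12. Scramble against control ran from -0.0760 to 0.044 for BECN1, -0.060 to 0.014 for PIK3C3 and -0.042 to 0.076 for ATG3. The knockdown against scramble ran from -0.035 to 0.094 for ATG3 and -0.044 to 0.022 for GABARAPL2. The cause of these changes was not tested.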
